A study of Mus musculus with 4 samples.

Results

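The thrombospondin genes Thbs1, Thbs2, Thbs3, Thbs4 and Comp, also known as Thbs5, were followed in Sca-1 cells of failing and healthy mouse hearts. These are 5 of the 18193 genes that have at least 1 probe set under their own symbol on the array, and they were taken by symbol from the platform annotation of the mouse genome array. In all, 9 probe sets carried one of the names, of which 8 were annotated to a single thrombospondin and 1 to both Thbs1 and Pald1, which is described apart. The study asked how expression in resident progenitor cells differs between failing and normal hearts. Cyc cells came from FVB mice aged 6 weeks that overexpressed both CyclinT1 and Gαq under the αMHC promoter, which is active in cardiomyocytes, and that developed heart failure. Wt cells came from wildtype littermates of the same age, and animals of either sex were used. Cells with Sca-1 on their surface were enriched from the hearts with magnetic beads, and RNA was taken from them without culture. Each array read 1 pool of cells from several mice, with 2 pools per genotype. A p-value here therefore reflects the spread between pools, not between mice, with variances moderated by those of other probe sets.

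Thrombospondins are secreted glycoproteins that bind calcium and many partners in the extracellular matrix. They form 2 groups, the trimers Thbs1 and Thbs2, which bind CD36 and CD47 on cells and inhibit angiogenesis, and the pentamers Thbs3, Thbs4 and Comp, which lack the domains of the trimers that bind CD36. Thbs1 is also known to activate latent TGF-β. Comp organizes collagen fibrils in cartilage and tendon and is induced by TGF-β in fibroblasts, and Thbs4 is known from loaded hearts, tendon and muscle.

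Values are the normalized probe set intensities as deposited, on a linear scale. Cyc pools 1 and 2 had a median of 197.6 and 280.5 over the tested probe sets, and Wt pools 1 and 2 one of 219.4 and 260.7. RNA controls added to the samples (poly-A controls) were bright in both pools numbered 1 and near 0 in both pools numbered 2, so the numbers were read as experiments 1 and 2. Ly6a, the gene of Sca-1, read 13368 and 11588 in Cyc and 14051 and 10562 in Wt pools (log2 fold change 0.03, 95% confidence interval -0.67 to 0.73), and 1 probe set for Gnaq, the gene of Gαq, read 723.6 and 492.3 in Cyc pools against 22.7 and 4.06 in Wt pools. The other 6 annotated to Gnaq here lay between -0.47 and -0.18 on the log2 scale and the 2 for Ccnt1, the gene of CyclinT1, at -0.24 and -0.48, and none of these passed. The study lists further Gnaq probe sets, which the annotation used here does not name. Markers of airway epithelium summed to 835.9 and 31006 in Cyc pools 1 and 2, and to 6305 and 499.9 in Wt pools 1 and 2, so Cyc pool 2 and Wt pool 1 stood apart from the others. Mesothelium markers were highest in the same pools, at 614.1 and 2370 in Cyc pools 1 and 2 and 1286 and 692.0 in Wt pools 1 and 2. In bulk RNA, more cells of a type cannot be told apart from more RNA per cell.

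Of the 8 probe sets with a single symbol, 3 rose in Cyc cells, 0 fell, 4 did not pass, and 1 was too dim to be tested. Passing meant the study's thresholds, at least a 2-fold difference together with p below 0.05 before correction, here from limma on the 20680 probe sets that reached 50 on 2 or more of the arrays. Of all tested probe sets 0.735% passed as higher and 0.116% as lower. None of them stayed below 0.05 after correction (0 against 412 before it), and each thrombospondin probe set had a limma adjusted p of 1. The calls of Comp and Thbs1 below therefore fail correction for multiple tests. With the experiment as a block, a paired comparison, the same 3 probe sets passed, beside 0.924% of all tested probe sets higher and 0.227% lower. The 3 that passed were 1 for Comp and 2 for Thbs1, while all those of Thbs2 and Thbs3 failed to pass.

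**Figure D1:**
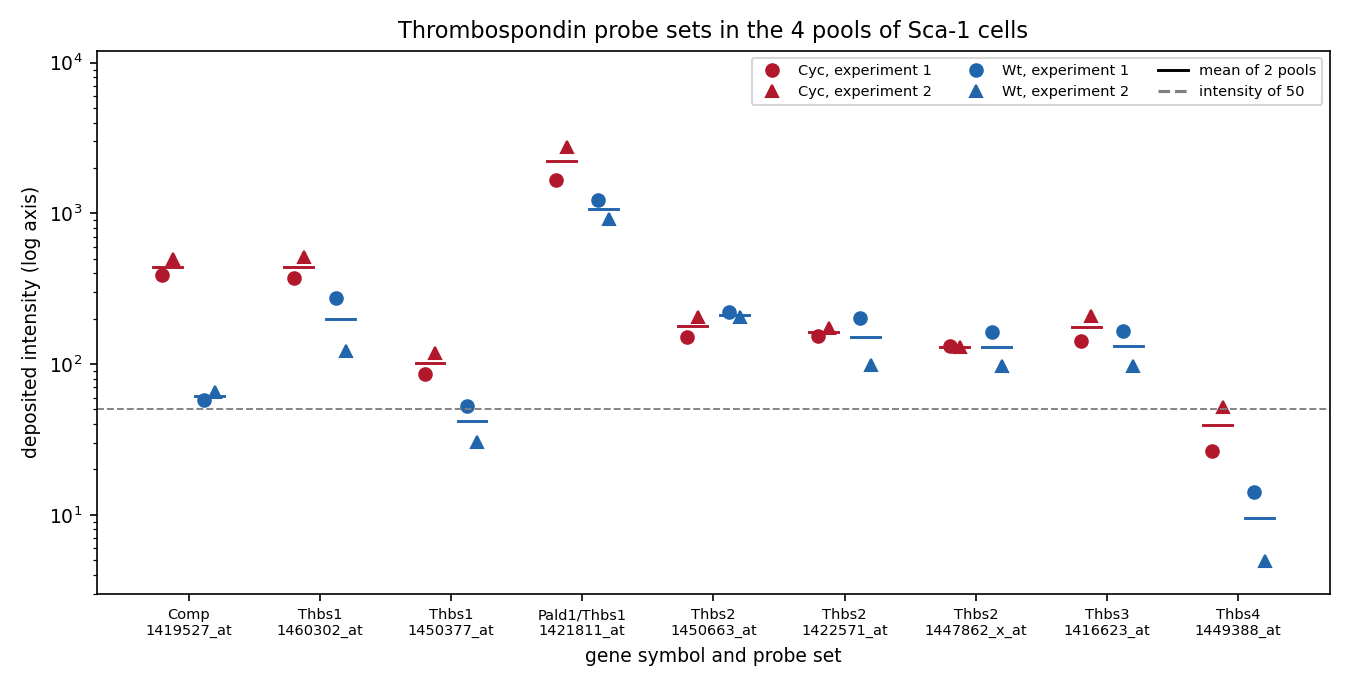
Deposited intensity (log axis) of the 9 thrombospondin probe sets in the 4 pools, with Cyc in red and Wt in blue, circles for experiment 1, triangles for experiment 2 and a line at the mean of each pair. Cyc and Wt pools lie far apart for Comp, closer for Thbs1, and overlap for Thbs2 and Thbs3, while Thbs4 reached the dashed line at 50 in Cyc pool 2 only.

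Comp, the pentamer of cartilage and tendon matrix, showed the largest difference of the tested members. The study names Comp among the cell migration genes that differed on these same arrays, so its direction is not independent evidence. The probe set of Comp, 1419527_at, had an intensity of 387.9 and 495.3 in Cyc pools 1 and 2, and of 58.0 and 65.4 in Wt pools 1 and 2. Both Cyc pools lay far above both Wt pools, and the pools of a genotype differed little from each other. The means were 442 ± 76.0 in Cyc and 61.7 ± 5.22 in Wt (SD, n = 2 pools each). Comp rose 5.86-fold on the scale with 16 added before log2, a log2 fold change of 2.55 with a standard error of 0.25 and a 95% confidence interval from 1.89 to 3.21 (limma, unadjusted p = 0.000228, adjusted p = 1). This scale understates changes of dim genes, and the plain ratios of the intensities were 6.69 in experiment 1 and 7.58 in experiment 2. On the log2 scale the differences were 2.45 and 2.65, so both experiments gave nearly the same size. In the order of log2 fold changes over all tested probe sets Comp stood at place 12 from the top, and in that of p-values at place 4. With the experiment as a block its interval ran from 2.06 to 3.04 (limma, adjusted p = 0.172), it passed both thresholds under every alternative that was run, and leaving out 1 pool at a time gave 2.38 to 2.72.

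Cells of tendon and cartilage express Comp, and of 18 genes listed for them 14 lay below 50 in all 4 pools. The tendon regulators Scx and Mkx and the tendon protein Tnmd were among these 14, as was Acan, the main cartilage proteoglycan, while Col2a1, the collagen of cartilage, on the list of matrix partners, was as dim. Sox9, the cartilage regulator, was above 50 in every pool, at 95.2 and 149.0 in Cyc pools 1 and 2 and 76.9 and 66.4 in Wt pools 1 and 2, and Fmod and Cilp of the same list rose in Cyc cells, as given with the related genes. Among marker lists of other cell types, the pool order of Comp, with Cyc pool 2 first and Wt pool 1 last, was also that of the sum over the Schwann cell list. That list summed to 160.8 and 282.4 in Cyc pools 1 and 2 and to 119.9 and 145.2 in Wt pools 1 and 2. Of its 7 genes 5 had a row, Egfl8 alone was bright enough to be tested, and it did not pass. Egfl8 read 60.6 and 63.9 in Cyc pools 1 and 2 and 18.8 and 52.4 in Wt pools 1 and 2, the order of the sum. Sox10, S100b, Mbp and Cdh19 each had another order. Orders of all members and all marker lists were looked at, and 4 pools have few possible orders. A shared order, here or for Thbs1 and Thbs3 below, therefore shows little by itself. The share of tested probe sets with each order was not counted. Sox10 and S100b lay below 50 in all pools, while Mbp read 14.1 and 108.7 in Cyc pools 1 and 2 and 23.0 and 16.2 in Wt pools 1 and 2, and Cdh19 reached 52.6 in Cyc pool 2, the pool where Comp was highest. Fibroblast markers summed to between 42346 and 42564 in Cyc and between 27186 and 43551 in Wt pools. At the brightest probe set 2 of 10 (Col1a1 and Pdgfrl) were higher past the thresholds, and so was Col1a2 at another of its probe sets. The part of these cells in the difference of Comp was not tested.

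The genes whose log2 pattern over the pools was closest to that of Comp were Fam167b, Mfap4 and Ltbp2, at Euclidean distances of 0.164, 0.399 and 0.434 over the 4 pools. Mfap4, a microfibril protein, read 279.1 and 375.0 in Cyc pools 1 and 2 against 55.4 and 65.4 in Wt pools 1 and 2. Ltbp2, which binds fibrillin microfibrils, read 386.3 and 713.0 in Cyc against 81.8 and 101.8 in Wt pools. Fam167b was near background in Wt, at -0.40 and -5.22, and read 74.1 and 100.7 in Cyc pools. It entered the fit through the Cyc pools alone, as neither Wt pool reached the intensity needed for testing. Both Wt values were negative, so its Wt level on the log2 scale came from the added constant alone. The closeness of Fam167b to Comp therefore depends on that constant. All 3 genes had both Cyc pools above both Wt pools, as their likeness to Comp requires.

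Thbs1, the trimer that inhibits angiogenesis and activates latent TGF-β, was read by 2 probe sets of its own, and both were higher in Cyc cells. The brighter, 1460302_at, had an intensity of 369.8 and 514.4 in Cyc pools 1 and 2, and of 273.3 and 123.0 in Wt pools 1 and 2. The pools did not overlap, but the Wt pools differed more than 2-fold from each other and Cyc pool 1 was close to Wt pool 1. Means were 442 ± 102 in Cyc and 198 ± 106 in Wt (SD, n = 2 pools each). This is a log2 fold change of 1.17 with a standard error of 0.44 and a 95% confidence interval from 0.03 to 2.32 (limma, unadjusted p = 0.0463, adjusted p = 1). Most of the difference came from experiment 2, with 1.93 on the log2 scale against 0.42 in experiment 1, and the difference between the experiments was not tested. Over their tested markers, airway epithelium had median differences of -3.74 and 6.04 in experiments 1 and 2, and mesothelium -1.48 and 2.89. The part of those cells in the difference of Thbs1 was not tested. Without Wt pool 2 the log2 fold change was 0.65 and without Cyc pool 2 it was 0.94, and neither passed the thresholds.

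The dimmer probe set of Thbs1, 1450377_at, moved the same way. It read 85.8 and 118.0 in Cyc pools 1 and 2, and 53.0 and 30.6 in Wt pools 1 and 2. Cyc pools again lay above Wt pools without overlap, and the limit of 50 was reached in both Cyc pools but in Wt pool 1 alone. Its log2 fold change was 1.04 with a standard error of 0.32 and a 95% confidence interval from 0.21 to 1.87 (limma, unadjusted p = 0.0237, adjusted p = 1). The differences were 0.56 in experiment 1 and 1.52 in experiment 2, larger in experiment 2 as at the brighter probe set. It did not pass without Cyc pool 2 (0.84) or Wt pool 2 (0.76). Both probe sets were read on the same arrays and are not replicates of each other.

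The probe set annotated to both Thbs1 and Pald1, 1421811_at, was the brightest of all. It read 1669 and 2766 in Cyc pools 1 and 2, and 1235 and 914.8 in Wt pools 1 and 2. Its log2 fold change came to 1.0 with a standard error of 0.35 (limma, unadjusted p = 0.0384, adjusted p = 1), with 0.43 in experiment 1 and 1.58 in experiment 2, and it lost its call without Cyc pool 2 (0.64), Wt pool 1 (1.22) or Wt pool 2 (0.79). The pools did not overlap, and their order was that of the probe sets of Thbs1 alone. Pald1 had a probe set of its own, 1448134_at, at 1679 and 1708 in Cyc against 1325 and 1639 in Wt pools, a log2 fold change of 0.20 with a standard error of 0.24 that did not pass.

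Platelets carry Thbs1 protein and macrophages express the gene, so their markers are given beside it. Platelet markers summed to 567.4 and 365.1 in Cyc pools 1 and 2, and to 525.0 and 485.3 in Wt pools 1 and 2. They were lowest in Cyc pool 2, where Thbs1 was highest, and none of the 3 tested of 8 passed. Pf4 and Itga2b lay above 50 in all 4 pools and Ppbp in all but Cyc pool 2, while Gp1bb, Gp9 and Treml1 lay below 50 in all pools. Macrophage and monocyte markers summed to 593.4 and 1694 in Cyc pools 1 and 2, and to 589.0 and 416.8 in Wt pools 1 and 2. The order of these sums was that of Thbs1, with Cyc pool 2 highest and Wt pool 2 lowest, but Cyc pool 1 and Wt pool 1 were nearly level. Of the tested markers, Adgre1, Csf1r, Cd14 and Lyz2 read lower in Cyc pool 1 than in Wt pool 1, and Ptprc read higher. Among the 5 tested of 10, 0 passed and 0 had both Cyc pools above both Wt pools. Lyz2 lay above 50 in every pool, while C1qa was below 0 in 3 pools. Their part in the difference of Thbs1 was not tested.

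Closest to the pool pattern of Thbs1 at its brighter probe set were Tmem119 at a distance of 0.114 and Nupr1 at 2 probe sets, at 0.118 and 0.125. Tmem119, a membrane protein known from bone formation and microglia, read 207.6 and 305.0 in Cyc pools 1 and 2, and 154.5 and 59.6 in Wt pools 1 and 2. Nupr1, a stress-induced nuclear protein, read 778.7 and 985.0 in Cyc against 513.5 and 250.8 in Wt pools at 1419665_a_at. The Wt pool of experiment 2 was the lowest for both genes, as their likeness to Thbs1 requires.

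**Figure D2:**
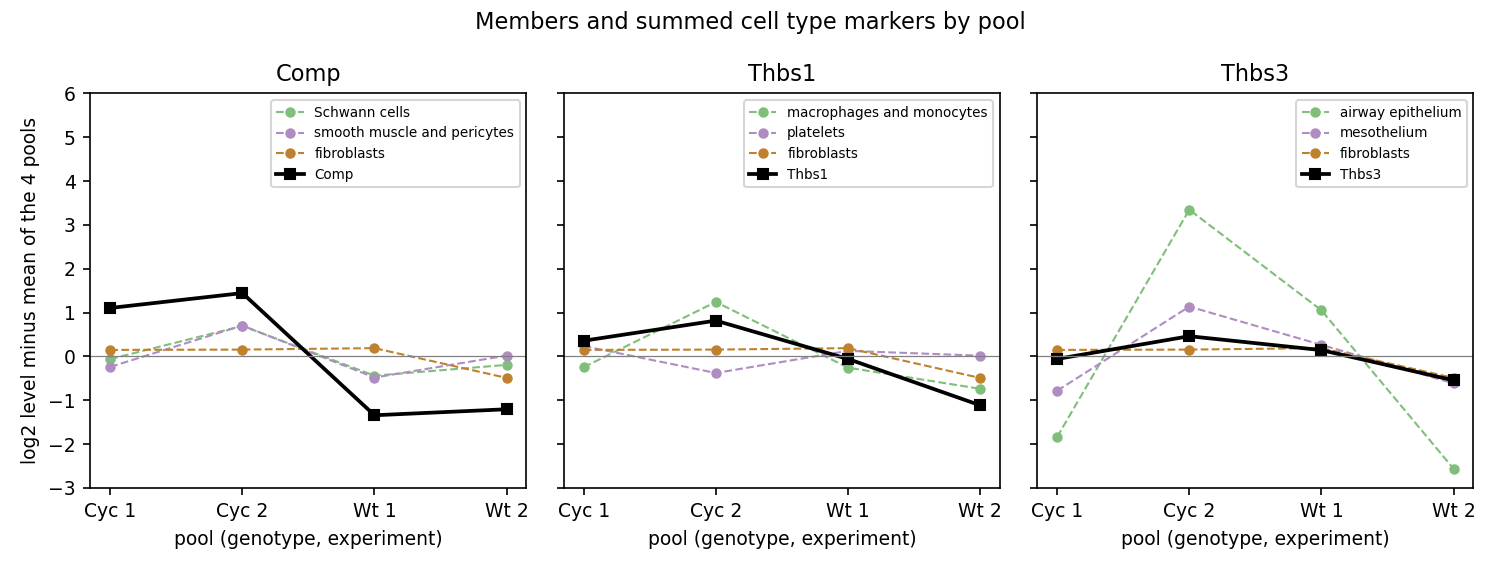
Log2 level (16 added) minus its mean over the 4 pools for Comp, Thbs1 and Thbs3 (black squares) and for summed markers of cell types (coloured circles), with Cyc pools left of Wt pools and lines that only join the points of one measure. Comp parts Cyc from Wt. Thbs1 has the pool order of the summed macrophage markers, which were nearly level in Cyc pool 1 and Wt pool 1. Thbs3 has that of the airway markers, whose spread is far wider.

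Thbs2, the trimer closest to Thbs1 in structure, did not pass at any of its 3 probe sets. At 1450663_at it read 151.7 and 206.4 in Cyc pools 1 and 2, and 220.8 and 205.5 in Wt pools 1 and 2. At 1422571_at it read 152.7 and 174.3 in Cyc against 201.9 and 98.4 in Wt pools. At 1447862_x_at the Cyc pools had 131.6 and 129.6 and the Wt pools 162.9 and 97.1. The genotypes overlapped at all 3, at the first through Cyc pool 2, which was level with Wt pool 2. The log2 fold change of 1450663_at was -0.25 with a 95% confidence interval from -0.93 to 0.43, below a 2-fold change in either direction. Those of the others were 0.18 (-0.81 to 1.18) and 0.04 (-0.77 to 0.85), so a 2-fold rise at 1422571_at lay within its interval (limma, adjusted p = 1 for each). In experiment 1 all 3 differences were below 0, at -0.50, -0.37 and -0.28, and in experiment 2 they were 0.0055, 0.73 and 0.36. Without Wt pool 2 the last 2 probe sets turned to -0.28 and -0.29. The genes closest to Thbs2 in pool pattern, at 1450663_at, were Mtr, Jade1 and Pcnx at distances from 0.0226 to 0.0250. None of them passed, as their likeness to Thbs2 requires.

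Thbs3, a pentamer of skeletal and heart tissue, read 141.7 and 210.0 in Cyc pools 1 and 2, and 165.4 and 96.5 in Wt pools 1 and 2 at 1416623_at. The genotypes overlapped, since Wt pool 1 lay between the Cyc pools. Its log2 fold change was 0.40 with a standard error of 0.36 and a 95% confidence interval from -0.54 to 1.34 (limma, unadjusted p = 0.315, adjusted p = 1), which a 2-fold rise lies within. The difference was -0.20 in experiment 1 and 1.01 in experiment 2. Leaving out 1 pool at a time gave 0.06 to 0.75. From high to low the pools ran Cyc 2, Wt 1, Cyc 1 and Wt 2, the same order as the airway epithelium markers given above, and the part of those cells was not tested. Clip4, Megf6 and Tent5a were closest to it in pool pattern, at distances of 0.00859, 0.0450 and 0.0678.

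Thbs4, a pentamer known to be induced in overloaded hearts, was near background. It read 26.7 and 52.3 in Cyc pools 1 and 2, and 14.2 and 4.91 in Wt pools 1 and 2 at 1449388_at. Only Cyc pool 2 reached 50, so the probe set was not tested and no fold is given, although both Cyc values were above both Wt values. Of the 7 tested probe sets of the family 3 had both Cyc pools above both Wt pools, against 15.1% of all tested probe sets. These were that of Comp and 2 of Thbs1, so they stand for 2 of the 4 tested genes. The same 3 of the 7, and no others, were higher in Cyc in both experiments, against 26.1% of all. For these 3 the lack of overlap requires it, so this is no further result. The median log2 fold change was 0.40 over the 7 and -0.02 over all tested probe sets.

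**Figure D3:**
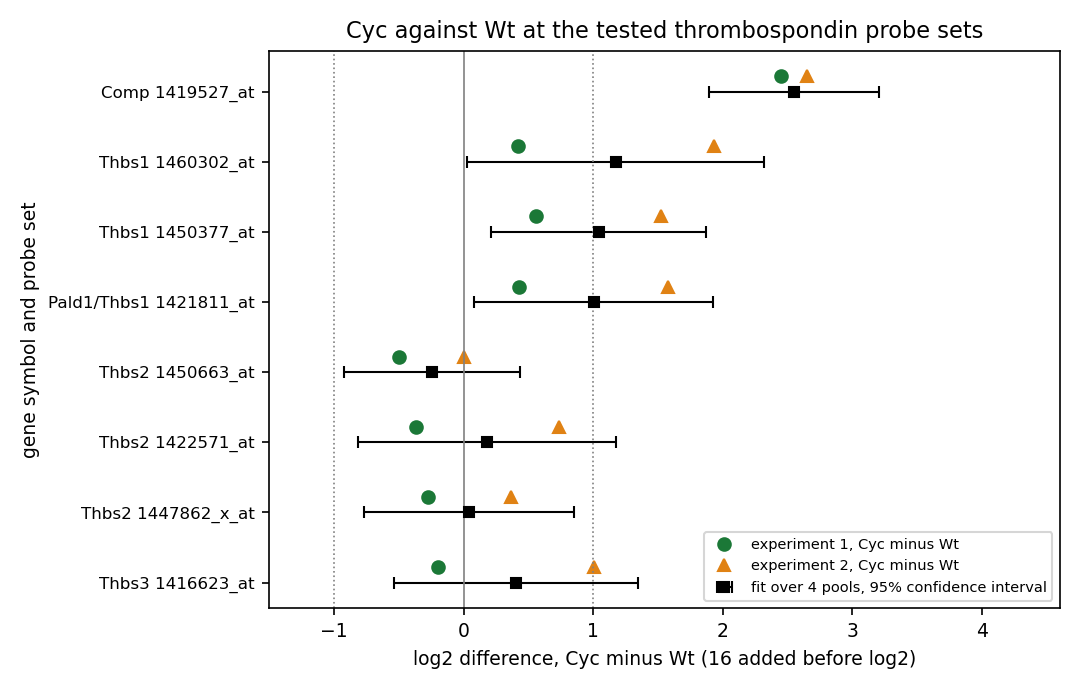
Log2 difference of Cyc minus Wt for each tested probe set, with circles for experiment 1, triangles for experiment 2, and squares with bars for the limma estimate over the 4 pools and its 95% confidence interval. For Comp both experiments lie at 2.45 and 2.65, for Thbs1 that of experiment 2 is the larger, and for Thbs2 and Thbs3 experiment 1 lies below 0.

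Promoter sequences are shown for Thbs2, Thbs3 and Thbs4, the members with an entry in the RefSeq promoter table (3 of 5, build GRCm38.p6). Comp and Thbs1 had no entry there. The 3 shown are also the ones that did not pass the thresholds or stayed dim, and they differ widely in base composition. Each run is the 250 bases before the start of the gene, read 5′ to 3′ on its own strand, with matches to short motifs on either strand in capitals. The motifs searched were TATAAA of core promoters, CCAAT of NF-Y, GGGCGG of Sp1, TGANTCA of Fos and Jun, CACGTG of E-boxes and CAGACA of Smad proteins, and none of the matches overlap.
Thbs2, chr17:14694263-14694512 (minus strand): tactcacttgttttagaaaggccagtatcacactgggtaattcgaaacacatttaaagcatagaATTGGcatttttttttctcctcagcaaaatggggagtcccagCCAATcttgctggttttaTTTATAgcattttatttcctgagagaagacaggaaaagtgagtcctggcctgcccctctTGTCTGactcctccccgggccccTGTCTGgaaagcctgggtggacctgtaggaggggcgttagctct
Thbs3, chr3:89214930-89215179 (plus strand): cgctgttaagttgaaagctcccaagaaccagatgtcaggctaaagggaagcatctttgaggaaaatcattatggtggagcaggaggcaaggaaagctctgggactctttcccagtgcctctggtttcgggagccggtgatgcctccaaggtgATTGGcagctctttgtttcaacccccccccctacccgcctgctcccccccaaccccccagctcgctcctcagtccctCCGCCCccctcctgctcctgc
Thbs4, chr13:92794819-92795068 (minus strand): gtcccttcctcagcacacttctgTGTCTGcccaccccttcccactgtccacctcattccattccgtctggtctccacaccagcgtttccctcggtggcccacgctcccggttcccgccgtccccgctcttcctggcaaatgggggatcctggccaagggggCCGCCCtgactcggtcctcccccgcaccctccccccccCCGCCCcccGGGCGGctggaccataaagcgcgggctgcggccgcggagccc
The Thbs2 window was 46.8% G and C and held 1 TATAAA, 2 CCAAT and 2 CAGACA. The Thbs3 window was 58.8% G and C, with 1 CCAAT and 1 GGGCGG. The Thbs4 window was 70.8% G and C, with 3 GGGCGG and 1 CAGACA, and TGANTCA and CACGTG had no match in any of the windows. Of 32851 promoters of the same length, 12.4% held TATAAA, 33.8% CCAAT, 32.7% GGGCGG, 6.75% TGANTCA, 6.02% CACGTG and 17.1% CAGACA. A match is a run of letters here, not a site shown to be bound.

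Receptors and partners of thrombospondins were read in the same cells, with each gene at its brightest probe set. Over the 10312 genes tested this way 0.921% passed as higher in Cyc, 0.126% as lower, and the median log2 fold change was 0.02. Several of these genes were named by the study on these arrays, so their direction is not independent evidence. Of 15 receptors, 13 were tested, 1 rose, 0 fell and 12 did not pass, with a median log2 fold change of 0.22. The brightest, the scavenger receptor Cd36, which binds Thbs1 and Thbs2, read 10208 and 10443 in Cyc and 12723 and 13490 in Wt pools (log2 fold change -0.34, standard error 0.22). Cd47, the receptor for the C-terminal domain, had a log2 fold change of -0.39 (0.54), the chaperone Calr 0.19 (0.23) and Itga6, a laminin-binding integrin, 0.03 (0.27). The receptor that rose was Sdc1, a heparan sulfate proteoglycan, at 910.9 and 1425 in Cyc against 532.6 and 486.4 in Wt pools (1.14, standard error 0.31, limma adjusted p = 1), and it lost its call without Cyc pool 2 (0.82), Wt pool 1 (1.20) or Wt pool 2 (1.07).

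Among 18 matrix partners 10 were tested, 1 rose, 0 fell and 9 did not pass, with a median of 0.30. The one that rose was Col1a1, a chain of collagen I, which Comp binds, at 456.1 and 905.5 in Cyc against 321.3 and 242.5 in Wt pools (1.16, standard error 0.40), and it lost its call without Cyc pool 2 (0.68), Wt pool 1 (1.35) or Wt pool 2 (0.97). Col12a1, a collagen that Comp binds, read 64.2 and 193.3 in Cyc against 39.6 and 40.9 in Wt pools. It did not pass without the block and passed with it, but it entered the fit through the Cyc pools alone, as neither Wt pool reached 50. The brightest members were Dcn, Col1a2, Grn and Hspg2, at log2 fold changes of -0.01, 0.69, 0.26 and -0.08. Col1a2 had 1 other probe set that passed as higher. The 8 that lay below 50 in all pools included the collagen IX chains, which Comp binds in cartilage, and 3 matrilins. Of 9 proteases that cut thrombospondins or Comp, 5 were tested and 0 passed (with the block 1, Adamts4), with a median of 0.55. Htra1, a serine protease, read 1609 and 1651 in Cyc against 1064 and 1055 in Wt pools, without overlap, a log2 fold change of 0.61 (0.22).

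Thbs1 acts on latent TGF-β, and the genes of that step and its targets were listed too. Of 9 genes for TGF-β ligands and latency proteins 8 were tested and 1 rose, Ltbp2, with a log2 fold change of 2.34 (0.37) and the values given beside Comp. The ligands Tgfb1, Tgfb2 and Tgfb3 did not pass, with 0.16, -0.60 and 0.38, and the median of the list was 0.09. Of 11 TGF-β target genes 10 were tested, 3 rose, 0 fell and 7 did not pass, with a median of 0.82, 0.23 in experiment 1 and 1.39 in experiment 2. Of those that did not pass, Tgfbi and Pmepa1 each had 1 other probe set that passed as higher. Ccn2, the connective tissue growth factor, read 6072 and 7504 in Cyc against 2389 and 1776 in Wt pools (1.70, standard error 0.28). Postn, a matricellular protein of activated fibroblasts, read 2405 and 3992 in Cyc against 881.1 and 761.6 in Wt pools (1.90, standard error 0.33). Ccn2, Postn and Ltbp2 had no overlap between genotypes and passed under every alternative that was run, while the target Col1a1 is the gene described above. Markers of smooth muscle and pericytes summed to 13184 and 25391 in Cyc pools 1 and 2, and to 11138 and 15772 in Wt pools 1 and 2. Of these 10 markers 9 were tested, with a median of 0.62, 0.27 in experiment 1 and 0.85 in experiment 2, and Kcnj8 passed as higher, while Cnn1 was below 50 in all pools. Their part in the TGF-β target genes was not tested.

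Thbs4 is known to bind Atf6 in the ER stress response, and of 14 genes of that response 0 passed, with a median of 0.09. Of 18 tendon and cartilage genes 14 lay below 50 in all pools and 4 were tested, of which 2 rose and 2, Prg4 and Sox9, did not pass. Fmod, a collagen-binding proteoglycan, read 184.4 and 1103 in Cyc against 69.5 and 50.3 in Wt pools (2.65, standard error 0.85), most of it in Cyc pool 2, and it lost its call without Wt pool 2 (2.47). Cilp, a matrix protein of cartilage and fibrotic heart, read 372.5 and 574.7 in Cyc against 258.5 and 147.9 in Wt pools (1.18, standard error 0.38), and it lost its call without Cyc pool 2 (0.87) or Wt pool 2 (0.80). Thbs1 is induced early when cells are stimulated, and of 11 immediate early genes 0 passed, with a median of 0.09. The brightest of them read high in every pool of both genotypes. Fos read 11645 and 10368 in Cyc against 11864 and 9036 in Wt pools, and Dusp1 10403 and 9976 against 10562 and 9483. Egr1 read 7824 and 9334 in Cyc against 8544 and 8895 in Wt pools, and Jun 5408 and 6894 against 5738 and 6010. Their part in the level of Thbs1 was not tested.

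**Figure D4:**
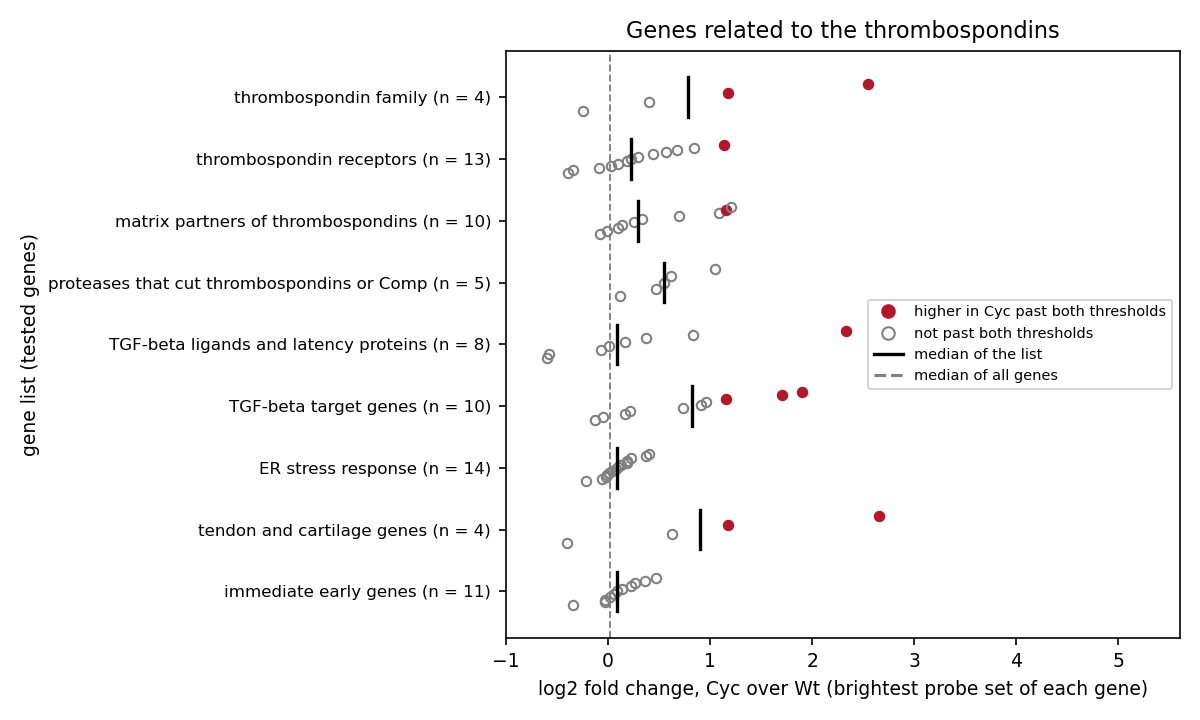
Log2 fold change, Cyc over Wt, of each tested gene at its brightest probe set by list, filled where it passed both thresholds, with a black bar at the median of each list and a dashed line at the median of all genes (0.02). Filled points lie in the family and in 5 of the related lists, all to the right, and those of Comp and Fmod lie farthest out.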

How the data were processed

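RNA of Sca-1 cells was read on 4 Affymetrix mouse genome arrays, 2 Cyc and 2 Wt. The deposited table holds intensities that the authors normalized in Resolver, on a linear scale, with values from -517 to 19512, for 45037 probe sets. The background correction and summary method are not given in the sources used here, and the number of arrays limits the precision. Values below 0 were set to 0, 16 was added and log2 taken. Probe sets that reached 50 on 2 or more arrays entered the fit, made with limma 3.58.1 under R 4.3.3 (two-sided, moderated variances, Benjamini-Hochberg over 20680), after the procedure was tested on simulated data. The study's Rosetta Resolver error model was not run. An exact permutation test of 2 against 2 pools cannot go below p = 0.333, so none is given. Same-numbered arrays deviated together from their group means (correlation 0.447), and the poly-A controls part the numbers, with medians of 258.8 in Cyc and 231.9 in Wt for number 1, and of -0.91 in Cyc and 0.30 in Wt for number 2. A fit with the experiment as a block was therefore run beside the main one.

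Named are all probe sets of the 5 genes, for each list its 4 brightest members and those that passed, and the 3 closest pool patterns per gene, but not every gene this covers is in the text, and the others were chosen after their values were seen. The family and the lists were chosen with earlier results of these data known. Ly6a was named through the study's own pairing of probe set and gene. Some genes of the lists are not reported here. Tried besides were the block, each array left out in turn, pseudocounts of 1 and 50, a filter at 100 or none, quantile and median scaling, a prior with an intensity trend, arithmetic means, and in lists averages over the probe sets of a gene. For arithmetic means only the fold was recomputed, and p stayed that of the main fit, so that setting tests the fold threshold alone.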

Additional observations from a re-analysis of the deposited data

Results flagged for a closer look

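The 2 experiments gave opposite signs of Cyc minus Wt at 4 probe sets, and with 1 array per genotype in each experiment these differences were not tested. Thbs3 (1416623_at) was at -0.20 in experiment 1 and at 1.01 in experiment 2, all on the log2 scale. Thbs2 was at -0.37 and 0.73 (1422571_at), at -0.28 and 0.36 (1447862_x_at), and at -0.50 and 0.0055 (1450663_at), the last of which was level in experiment 2. Over all tested probe sets the median difference was -0.10 in experiment 1 and 0.06 in experiment 2.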

How the results depend on the processing

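Comp passed both thresholds under all 14 alternatives, with log2 fold changes from 2.13 to 2.81. Thbs1 at 1460302_at did not pass with a pseudocount of 1 (1.25) or without a filter (1.17), and leaving out 1 array gave 0.65 to 1.70. At 1450377_at it did not pass with a pseudocount of 50 (0.73), and 1421811_at, shared with Pald1, neither with a pseudocount of 50 (0.98) nor without a filter (1.0). Leaving out 1 array, 1 to 3 thrombospondin probe sets were called higher, 1 (Comp) without Cyc pool 2 or without Wt pool 2. Without Wt pool 2 the Thbs2 probe sets 1422571_at and 1447862_x_at turned to -0.28 and -0.29, the ends of leave-one-out ranges up to 0.65 and 0.37. The cause was not tested. Over all probe sets, 152 were called higher and 24 lower. A pseudocount of 50 gave 93 higher. Lower calls numbered 46 with a pseudocount of 1, 37 without a filter, 47 with the replicate block (a paired fit), and 49 with quantile normalization and the block, which was chosen after seeing the data. Leaving out 1 array gave 117 to 581 higher and 29 to 1050 lower, the 581 without Cyc pool 1 and the 1050 without Cyc pool 2, which moved the share of higher calls to 10.03%, against 86.4% with all arrays. Col1a1, Fmod and Cilp did not pass without a filter. The block changed no call of a thrombospondin probe set. With probe sets averaged within genes, the median of the TGF-β ligands and latency proteins was -0.03. With 2 pools per genotype, intervals were wide enough to hold a 2-fold change for Thbs3 and for Thbs2 at 1422571_at.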
